A study of Mus musculus with 14 samples.

Results

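The Toll-like receptors and the proteins that pass on their signal were followed in LSECs, the liver sinusoidal endothelial cells whose fenestrated layer lines the capillaries of the liver. The 10 genes were taken by name through the RefSeq identifiers of the count files: 5 receptors (Tlr2, Tlr3, Tlr4, Tlr7 and Tlr9), 2 co-receptors of TLR4 (Cd14 and Ly96), 2 adaptors (Myd88 and Ticam1) and the kinase gene Irak4. These are 10 of the 23930 targets of the panel, each represented by 1 target (NM_011905.3 for Tlr2, NM_126166.4 for Tlr3, NM_021297.3 for Tlr4, NM_001290755.1 for Tlr7, NM_031178.2 for Tlr9, NM_009841.4 for Cd14, NM_001159711.1 for Ly96, NM_010851.2 for Myd88, NM_174989.4 for Ticam1 and NM_029926.5 for Irak4). Of the 10, 9 were among the 14168 targets with enough reads to be tested. The study compared 7 LSEC libraries from aged mice (10 to 11 months old) with 7 from young mice (8 to 10 weeks old), and all mice were female, wild type and of strain C57BL/6J. The cells had been sorted from liver as dim for CD45 and high for STAB2 and CD146 (CD45 is the pan-leukocyte protein encoded by Ptprc, and the gate was dim for it, not negative). Experiment 1 supplied 3 aged and 3 young libraries and experiment 2 supplied 4 of each. A library's name gives its age, its experiment and its number, so that aged 2.4 is number 4 of the aged libraries in experiment 2. Whether each library stands for a separate mouse is not stated, and the p-values cover only the variation among these libraries, which may be technical in part.

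Toll-like receptors recognise molecules of microbes or of damaged cells. TLR2 and TLR4 sit at the cell surface, where TLR2 binds bacterial lipopeptides and TLR4, together with MD-2 (encoded by Ly96) and CD14, binds lipopolysaccharide. TLR3, TLR7 and TLR9 work inside endosomes, where they bind double-stranded RNA, single-stranded RNA and unmethylated CpG DNA. All of them except TLR3 signal through the adaptor MyD88, which gathers IRAK4 and other kinases and leads to NF-kB; TLR3 and, from the endosome, TLR4 use TRIF (encoded by Ticam1), which leads to type I interferon. LSECs meet gut-derived lipopolysaccharide in portal blood and take up much of it, whereas TLR7 and TLR9 are best known from B cells, plasmacytoid dendritic cells and macrophages.

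Gene reads per library ran from 6710403 to 13977361. Levels are in CPM, read counts divided by a library size that was adjusted with TMM factors (trimmed mean of M values). Amplicons differ in efficiency and their lengths were not used here, so levels are compared between libraries. Where a gene is set beside receptor targets in the same library, the comparison is of CPM alone, not of transcript amounts. The sort marker Stab2 lay between 1656 and 2170 CPM in aged libraries and between 1739 and 2376 CPM in young libraries. Leukocyte transcripts were present at unequal levels: Ptprc ran from 3.34 to 79.9 CPM in aged libraries (median 18.2) and from 1.43 to 34.4 CPM in young libraries (median 5.57). The 7 tested pan-leukocyte genes (Ptprc, Cd52, Cd53, Coro1a, Rac2, Ptprcap and Vav1) were all higher in aged libraries, with a median log2 fold change of 2.27, and none passed the test. Of these, 4 had an unadjusted p under 0.05 by edgeR's quasi-likelihood test. So did all 4 tested B cell markers, which were higher in aged libraries (median log2 fold change 3.24, none called). Over all 14168 tested targets 959 did. Targets of taste, vomeronasal and olfactory receptor genes, which LSECs are not known to use, took 0.145 to 3.15% of gene reads and varied between libraries of the same age. Both quantities are set beside the results they touch.

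Promoter sequences from RefSeq (build GRCm38.p6) were found for 6 of the 10 genes, and 3 are shown because their levels represent the patterns described next: Tlr9 was read at uneven levels, whereas Tlr3 and Myd88 were read at a steady level in every library. Each window is the 250 bases before the gene start, 5′ to 3′ on the strand of the gene, at chr9:106222348-106222597 (plus strand) for Tlr9, chr8:45410381-45410630 (minus strand) for Tlr3 and chr9:119340019-119340268 (minus strand) for Myd88. Capitals mark the match to a searched motif.
Tlr9: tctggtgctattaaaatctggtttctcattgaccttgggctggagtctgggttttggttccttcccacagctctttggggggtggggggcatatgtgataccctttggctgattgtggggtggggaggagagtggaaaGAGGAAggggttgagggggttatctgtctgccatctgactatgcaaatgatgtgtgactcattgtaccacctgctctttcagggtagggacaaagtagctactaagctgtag
Tlr3: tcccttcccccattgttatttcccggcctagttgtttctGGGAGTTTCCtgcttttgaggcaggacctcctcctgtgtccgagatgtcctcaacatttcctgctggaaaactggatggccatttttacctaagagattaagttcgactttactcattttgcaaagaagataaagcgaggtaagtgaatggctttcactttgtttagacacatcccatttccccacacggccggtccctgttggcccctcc
Myd88: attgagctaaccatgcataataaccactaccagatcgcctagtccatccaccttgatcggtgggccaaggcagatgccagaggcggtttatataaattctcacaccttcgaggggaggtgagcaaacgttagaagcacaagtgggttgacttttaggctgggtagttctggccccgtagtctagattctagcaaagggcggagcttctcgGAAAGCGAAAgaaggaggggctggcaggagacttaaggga
Both strands were searched for 3 motifs: GAGGAA, the core bound by PU.1, a transcription factor of myeloid and B cells, an NF-kB site (GGGA, any base, then TTTCC) and an interferon regulatory factor site (GAAA, any 2 bases, then GAAA). Tlr9 held 1 GAGGAA and neither of the other motifs, Tlr3 held 1 NF-kB site and Myd88 held 1 interferon regulatory factor site, so no match overlapped another motif. Ticam1, the steadiest of the 10 genes (coefficient of variation 14.2%, against 152.8% for Tlr9), also held 1 GAGGAA. Its level exceeded the median of the receptor targets in only 7 of the 14 libraries. The windows of Tlr2 and Irak4 held none of the 3 motifs. Among 32851 promoters of the same length, 23.3% held GAGGAA, 2.98% the interferon regulatory factor site and 0.356% the NF-kB site. A match describes the letters of the window and is not evidence that a factor binds there.

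The first question was whether any of the 10 genes had another level in LSECs of aged mice than in those of young mice. None of the 9 tested members passed the test in aged against young libraries with the experiment in the model (edgeR's quasi-likelihood test, Benjamini-Hochberg adjusted p under 0.05), where 0.162% of all targets did, 11 higher and 12 lower in aged mice. Tlr2, Tlr7, Cd14 and Ly96 had positive and the other 5 tested genes negative fold changes, and their median log2 fold change was −0.05, beside −0.0022 over all tested targets. Cd14 was the only member with an unadjusted p under 0.05, and DESeq2 and limma-voom also called 0 members. Over the whole panel DESeq2 called more targets than edgeR did, as given in the last section. The test within experiment 1 called 0% of all targets (914 at an unadjusted p under 0.05, 86 called by DESeq2, 1 by limma-voom) and the test within experiment 2 called 0.00706%, and no member was called in either. A member-by-member difference between the experiments in the response to age was not called either; that test called 0% of all targets (309 at an unadjusted p under 0.05, 0 called by DESeq2 and 0 by limma-voom).

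**Figure D1:**
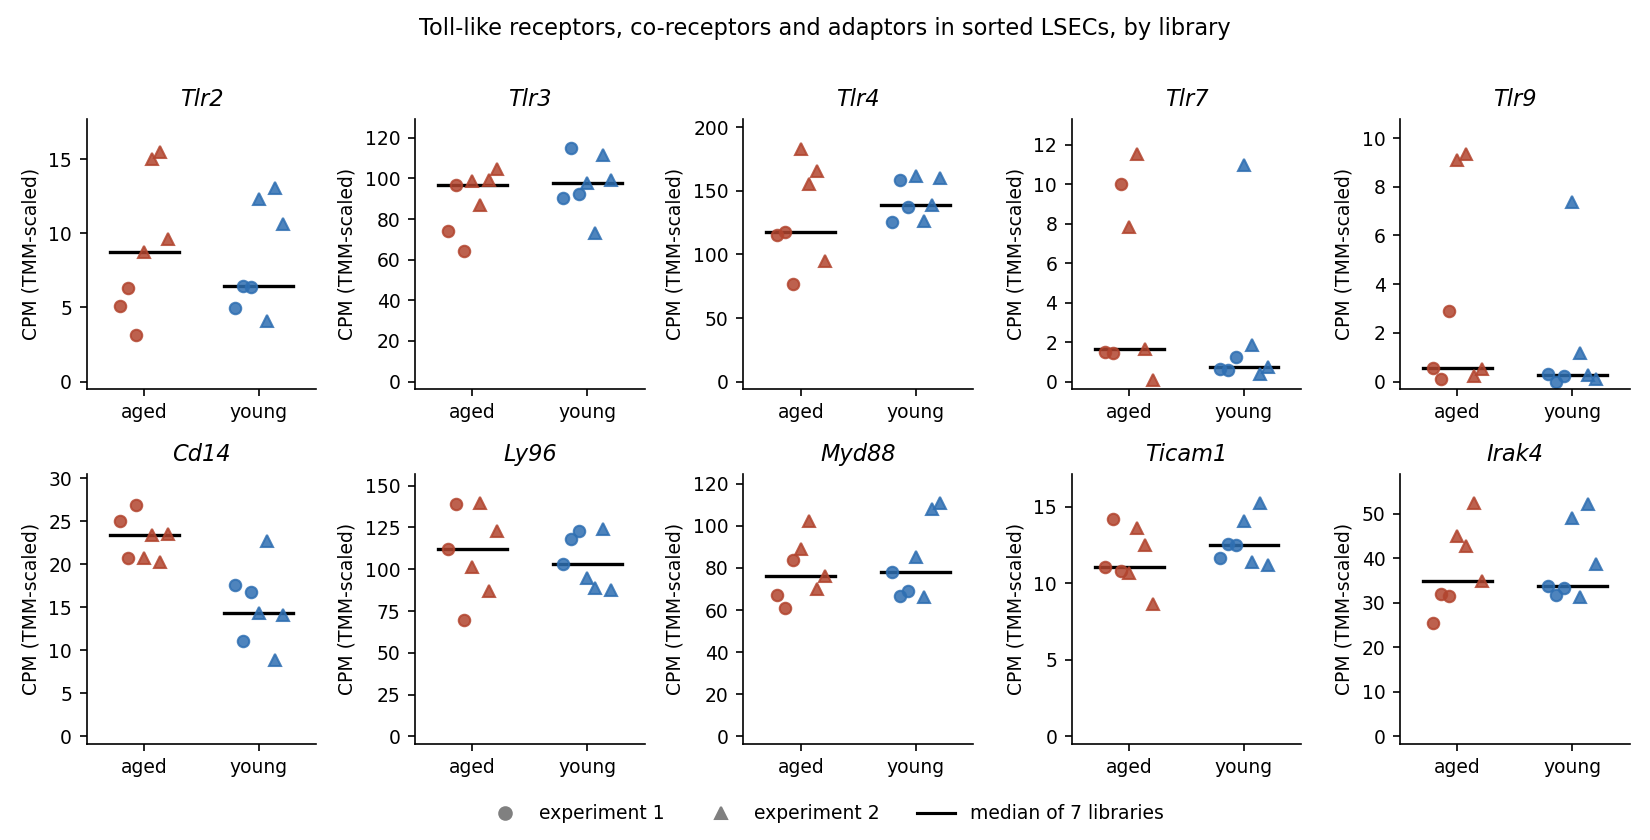
Level of each of the 10 genes (CPM, TMM-scaled, linear axis) in 7 aged libraries (left, red) and 7 young libraries (right, blue), with circles for experiment 1, triangles for experiment 2 and a line at the median of each age. Cd14 lies between 20.3 and 26.8 CPM in aged libraries and overlaps the young ones only through 1 library, while Tlr7 and Tlr9 are high in a few libraries of either age.

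TLR4, the lipopolysaccharide receptor, was read at a lowest, median and highest level of 77.1, 117.4 and 182.7 CPM in aged libraries, against 125.6, 139.1 and 162.1 CPM in young libraries. The aged libraries spread on both sides of the young ones: 4 lay below all young libraries and 2 above them. The log2 fold change of Tlr4 was −0.17 (SE 0.157, 95% interval −0.51 to 0.16, adjusted p = 0.999 by edgeR's quasi-likelihood test). It was 0.03 in experiment 2 and −0.45 in experiment 1, where all 3 aged libraries lay below the 3 young ones. The difference, experiment 2 minus experiment 1, was 0.47 on the log2 scale and had a 95% interval of −0.18 to 1.12.

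Tlr3, the receptor for double-stranded RNA, was among the steadiest members. It had 64.2, 96.9 and 104.8 CPM as the lowest, median and highest level in aged libraries, against 73.3, 97.7 and 115.1 CPM in young libraries, with a coefficient of variation of 15.6% over all 14. The medians differed by less than the spread within either age, and the log2 fold change was −0.13 (95% interval −0.40 to 0.14, adjusted p = 0.999 by edgeR). The log2 fold change of Tlr3 was 0.03 in experiment 2 and −0.34 in experiment 1. The library aged 1.3, which had the highest Ptprc, held the lowest level of Tlr3, Tlr4, Tlr2 and Ly96. It also had the highest summed hepatocyte markers (5102 CPM, where young libraries reached 1875) and T and NK cell markers (517 CPM). Its summed LSEC and endothelial markers were the lowest (25767 CPM), and 2.99% of its reads were on receptor targets. Which of these went with the low levels was not tested.

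Tlr2, the lipopeptide receptor, differed more between the experiments than between the ages. In aged libraries it had 8.74, 15.0, 15.5 and 9.60 CPM in experiment 2 and 5.12, 6.31 and 3.15 CPM in experiment 1. In young libraries it had 12.3, 4.11, 13.1 and 10.6 CPM in experiment 2 and 4.99, 6.46 and 6.40 CPM in experiment 1. All libraries of experiment 2 except young 2.2 lay above all libraries of experiment 1. Between ages the log2 fold change was 0.04 (95% interval −0.58 to 0.66, adjusted p = 0.999 by edgeR), so neither direction can be read.

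The comparison of experiment 2 with experiment 1, with age in the model, was added after these values had been seen, and it called 7.79% of all targets, 6.99% as higher in experiment 2. Tlr2 was the 1 member called, at 2.05-fold higher in experiment 2 (log2 1.04, SE 0.299, adjusted p = 0.0489 by edgeR's quasi-likelihood test, n = 8 against 6 libraries). Irak4 had the next smallest p, at 1.39-fold higher (log2 0.47, SE 0.138), and did not pass; Tlr7 had a larger difference with a wide interval (log2 1.10, 95% interval −0.90 to 3.10) and did not pass either. DESeq2 and limma-voom called Tlr2 and Irak4, where they called 14.2% and 32.8% of all targets. Tlr2 was not called without TMM (log2 0.89, adjusted p = 0.0689), where 4.32% of targets were. The Tlr2 call held in 2 of the 14 runs that left out 1 library, those without aged 2.4 (log2 1.07) and without young 2.2 (1.18), and not in the other 12 (0.84 to 1.10). Those 2 runs called 35.3% and 28.3% of all targets and the other 12 called 1.17 to 6.5%, so calls were more numerous over the whole panel and not for Tlr2 alone. With the share of reads on receptor targets as a term, its log2 difference was 0.57 (adjusted p = 0.338). That share ran from 0.145 to 2.90% in experiment 2 and from 1.19 to 3.15% in experiment 1. Tlr2 also lay above the median level of those receptor targets in 6 of 8 libraries of experiment 2 and 0 of 6 of experiment 1.

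Tlr7, the receptor for single-stranded RNA, and Tlr9, the receptor for CpG DNA, were read at low levels in most libraries and at high levels in a few. Tlr7 had 1.47, 1.46 and 10.0 CPM in aged libraries of experiment 1 and 7.83, 11.5, 1.67 and 0.104 CPM in aged libraries of experiment 2. In young libraries it had 0.660, 0.611 and 1.25 CPM in experiment 1 and 11.0, 1.85, 0.409 and 0.715 CPM in experiment 2. The libraries aged 1.3, aged 2.1, aged 2.2 and young 2.1 lay at 7.83 CPM or more and the other 10 at 1.85 CPM or less, so high and low values occurred at both ages. The aged over young log2 fold change was 1.30 (SE 0.913), with a 95% interval of −0.66 to 3.26 and an adjusted p of 0.999 by edgeR. It was 0.65 without aged 1.3 and 2.34 without young 2.1, the lowest and highest of the 14 runs that left out 1 library, and was not called in any of them.

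Tlr9 followed the same libraries. It had 0.543, 0.0915 and 2.91 CPM in aged libraries of experiment 1 and 9.08, 9.35, 0.239 and 0.522 CPM in aged libraries of experiment 2. In young libraries it had 0.293, 0 and 0.234 CPM in experiment 1 and 7.37, 1.19, 0.273 and 0.119 CPM in experiment 2. The library at 0 allows a level of up to 0.262 CPM, that of 3 reads, and 6 of the 14 libraries held 3 Tlr9 reads or fewer. Tlr9 missed the filter on low counts, so it has no value in the main age comparison. Under a filter set on the 4 groups of age and experiment, added after the values had been seen, its log2 fold change was 1.59 (SE 1.06, adjusted p = 0.922 by edgeR), where 0.224% of 15184 targets were called.

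The level of leukocyte transcripts in each library was entered as a term beside age and experiment, as the mean log2 CPM of the 7 pan-leukocyte genes. A slope of 1 then means that a gene changes in proportion to these genes. Tlr7 had a slope of 1.03 (SE 0.155, adjusted p = 0.00174 by edgeR's quasi-likelihood test) and was the only one of the 9 tested members called, where 1.76% of all targets were called and 1.74% with a positive slope. Each of the 14 runs without 1 library called it, with slopes of 0.887 to 1.24, as did the model with Ptprc alone in place of the score (0.998, adjusted p = 0.0106). With the level of Kupffer cell markers in place of the score it was not called (adjusted p = 0.402), where 2 of all targets were called. Tlr9 had a slope of 0.94 (SE 0.227) under the filter on 4 groups. It reached 1.19 CPM or more only in the 5 libraries highest in Ptprc (aged 1.3, aged 2.1, aged 2.2, young 2.1 and young 2.2) and entered that looser filter through its high libraries, so its slope is a description with no test.

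The remaining 8 members had slopes between −0.08 and 0.04, and none was called. Tlr3 had −0.08 (95% interval −0.15 to 0.00) and Ly96 −0.07, while Tlr4 had 0.01 (−0.11 to 0.13), Myd88 0.03, Irak4 0.03, Ticam1 0.04 and Cd14 0.04 (−0.09 to 0.18). The markers of LSECs themselves (14 tested) had a median slope of −0.05 with 0 called. B cell markers had a median slope of 1.18 with 4 of 4 tested called, T and NK cell markers 1.40 with 4 of 7, monocyte and neutrophil markers 0.67 with 2 of 5, and Kupffer cell markers 0.32 with 2 of 8. Dendritic cell markers had a median slope of 0.00052 with 0 of 3 tested called by edgeR (1 at an unadjusted p under 0.05). Zbtb46 held most of the dendritic marker reads in every library, and Siglech and Ccr9, markers of plasmacytoid dendritic cells, had too few reads to be tested. Under the filter on 4 groups 5 dendritic cell markers were tested, with a median slope of 0.35 and 1 called, where 3.06% of all targets were. That filter was added after the values had been seen, so this is a description. The slopes of the 4 tested B cell markers ran from 1.06 to 1.52, beside the 1.03 of Tlr7. With the score in the model the age fold change of Tlr7 turned from positive to negative (log2 −0.43, adjusted p = 1), as it did with Ptprc alone (−0.57). In a bulk sample more cells of a type and more RNA per cell cannot be told apart.

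**Figure D2:**
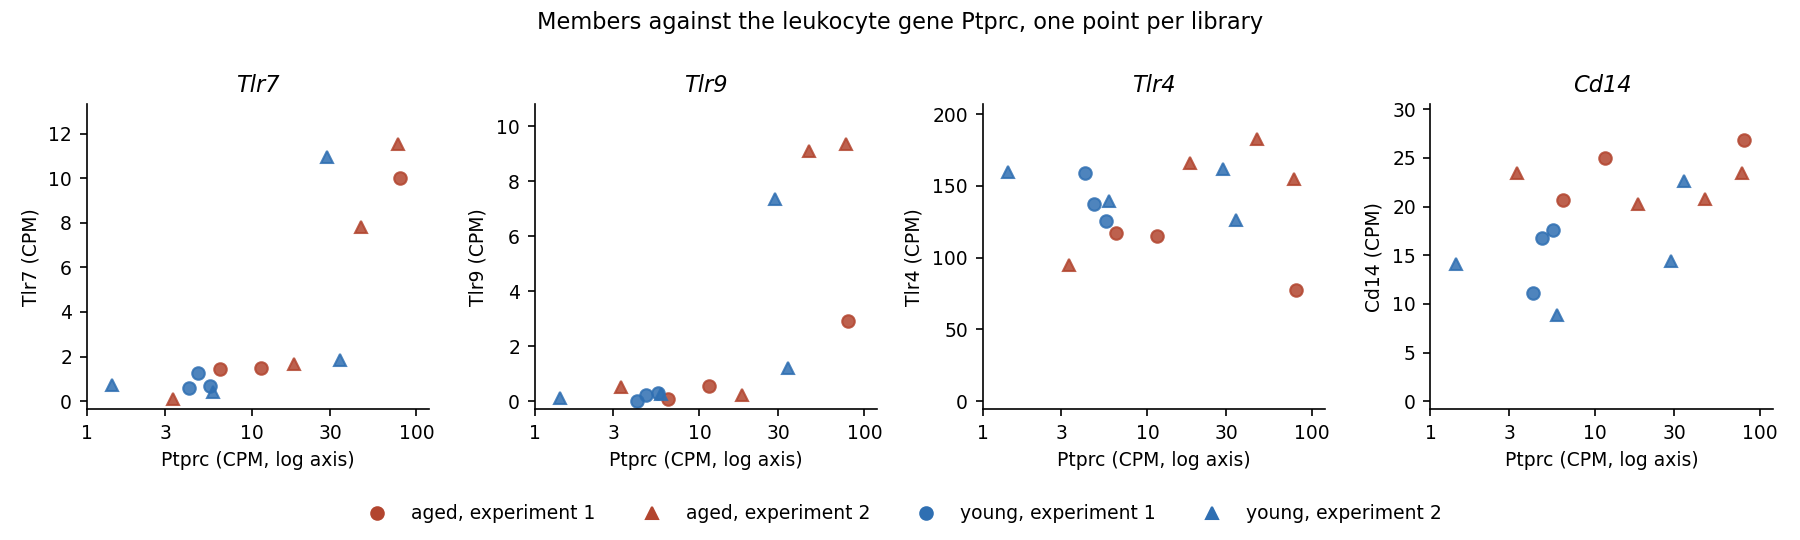
Levels of Tlr7, Tlr9, Tlr4 and Cd14 (CPM, linear vertical axes) against the leukocyte gene Ptprc (CPM, log axis), 1 point per library, with aged in red, young in blue, circles for experiment 1 and triangles for experiment 2. Tlr7 and Tlr9 are high only among the 5 libraries with 28.7 CPM of Ptprc or more, whereas Tlr4 and Cd14 vary widely at both low and high Ptprc.

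The order of libraries by Tlr7 was close to that by Ptprc but not identical. Aged 1.3 and aged 2.2 had the highest Ptprc, 79.9 and 77.5 CPM, with 10.0 and 11.5 CPM of Tlr7. Young 2.2 came behind only 3 aged libraries for Ptprc at 34.4 CPM and held only 1.85 CPM of Tlr7, while young 2.1, at 28.7 CPM of Ptprc, held 11.0 CPM. Expressed as a share of the Ptprc level, Tlr7 was 38.2% in young 2.1, 17.0% in aged 2.1, 14.9% in aged 2.2, 12.6% in aged 1.3 and 5.38% in young 2.2. The B cell marker Cd79b separated the same pair of young libraries, with 21.7 CPM in young 2.1 and 3.31 CPM in young 2.2. Summed Kupffer cell and macrophage markers did so too, with 84.9 CPM in young 2.1 and 37.2 CPM in young 2.2. Summed T and NK cell markers (109 and 213 CPM) and summed monocyte and neutrophil markers (73.8 and 261 CPM) went the other way. The T and NK sum mixed genes of both directions. Young 2.1 and young 2.2, with 13604750 and 6710403 gene reads, had 200 and 9 reads of Cd3e and 307 and 20 of Cd3g. Gzma (91 and 668 reads), Klrb1c (148 and 230) and Nkg7 (245 and 324) were instead higher in young 2.2. Which of these cells held the Tlr7 reads was not tested. In aged 1.3 Tlr9 was 3.64% of the Ptprc level and Tlr7 12.6%, against 19.7% and 17.0% in aged 2.1.

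The genes whose log2 levels were most like that of Tlr7 over the 14 libraries, with the means of each experiment removed, were Cd300a (Pearson's r 0.961), an inhibitory receptor of leukocytes, Cd74 (0.960), the invariant chain of MHC class II, and Adcy7 (0.941), an adenylate cyclase, out of 11743 targets compared. For Tlr4 they were Pelo (0.977), Ap1b1 (0.974) and Slc38a10 (0.965). For Tlr3 the closest was Ube2r2 (0.962), for Tlr2 Eif1a (0.926), for Irak4 Chid1 (0.939), for Ly96 Cdkn2aip (0.890), for Myd88 Hnrnpu (0.871) and for Ticam1 Zfp319 (0.853). For Cd14 they were Cadm1 (0.892), Aif1 (0.888), a gene known from macrophages, and Mlph (0.884). All such coefficients share the libraries' depth and their load of receptor-target reads, and each is a description. Among the members themselves, Tlr2 and Tlr3 had r = 0.67 and Tlr3 and Cd14 had r = −0.72.

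Cd14, the co-receptor that hands lipopolysaccharide to TLR4 and MD-2, came nearest to a difference between ages. It had 25.0, 20.7 and 26.8 CPM in aged libraries of experiment 1 and 20.8, 23.4, 20.3 and 23.5 CPM in aged libraries of experiment 2. In young libraries it had 17.6, 11.1 and 16.8 CPM in experiment 1 and 14.4, 22.7, 8.86 and 14.1 CPM in experiment 2. All 7 aged libraries lay above the young mean of their own experiment, and only young 2.2, at 22.7 CPM, reached into the aged range. The mean of Cd14 was 22.9 ± 2.48 CPM (SD) over the 7 aged libraries and 15.1 ± 4.52 CPM over the 7 young libraries, a 1.52-fold difference (95% interval 1.12 to 2.06). The log2 fold change was 0.60 (SE 0.204, unadjusted p = 0.0103, adjusted p = 0.555 by edgeR's quasi-likelihood test), so it did not pass. It was 0.55 in experiment 2 and 0.67 in experiment 1, and the difference, experiment 2 minus experiment 1, was −0.12 (95% interval −1.05 to 0.80).

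Cd14 was also set beside reads on receptor targets and markers of Kupffer cells. With the share of receptor-target reads as a term, the log2 fold change was 0.67 with an adjusted p of 0.0541, the lowest among the 29 alternatives run, of which none called Cd14. Young 2.2, the young library highest in Cd14, had 2.90% of its reads on receptor targets, and Cd14 had a positive slope on the log2 of that share (0.18, adjusted p = 0.0189). All 8 tested markers of Kupffer cells, the resident macrophages of the liver, which also carry CD14, were higher in aged libraries. Their median log2 fold change was 1.71 and none was called, where 0.162% of all targets were. By edgeR, 7 of the 8 had an unadjusted p under 0.05, as had 959 of the 14168 tested targets. The summed level of the 12 Kupffer cell and macrophage markers on the panel ran from 37.6 to 296 CPM in aged and from 37.2 to 119 CPM in young libraries, and Marco, C1qa, C1qc and Cd163 were at 0 in at least 1 library. Aged 2.4, with the lowest aged sum of those markers (37.6 CPM), had 23.5 CPM of Cd14, and aged 1.3, with the highest (296 CPM), had 26.8 CPM. Young 2.2, the young library highest in Cd14 at 22.7 CPM, had the lowest sum of all libraries (37.2 CPM). With Kupffer cell markers in place of the leukocyte score 0 of 9 members were called, where 2 of 14168 targets were. With the leukocyte score in the model the Cd14 log2 fold change was 0.55, against 0.60 without it.

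Ly96, which encodes MD-2, the part of the complex that holds lipopolysaccharide, had 69.5, 112.0 and 139.4 CPM as lowest, median and highest in aged libraries, against 87.4, 103.2 and 124.2 CPM in young libraries. The ages overlapped, and the log2 fold change was 0.06 (95% interval −0.27 to 0.40, adjusted p = 0.999 by edgeR). Of the 3 parts of the lipopolysaccharide receptor, Tlr4 and Ly96 thus had intervals spanning 0, while that of Cd14 lay above 0 before adjustment.

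**Figure D3:**
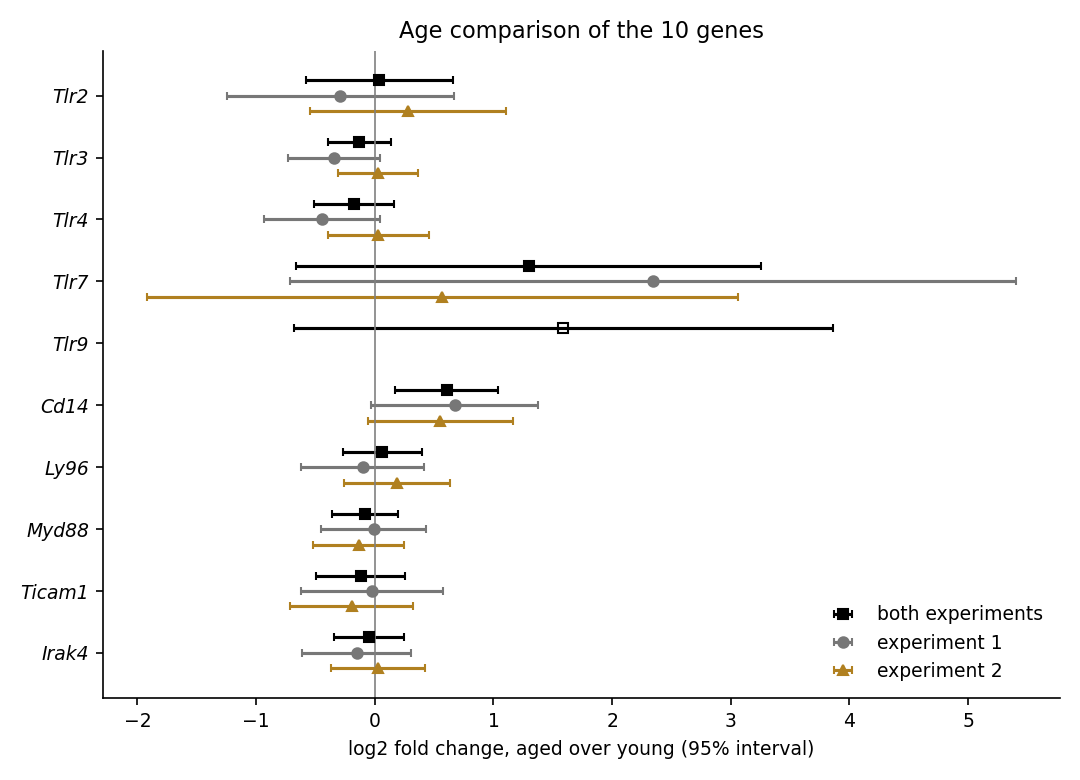
Aged over young log2 fold change of each member with its 95% interval, for both experiments together and for each experiment alone. The open square of Tlr9 comes from the filter on 4 groups, since Tlr9 missed the filter of the other values. The interval of Cd14 for both experiments lies above 0 (0.17 to 1.04) and those of the other members span 0.

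Myd88, the adaptor shared by all of these receptors except TLR3, had 61.1, 75.9 and 102.3 CPM as lowest, median and highest in aged libraries, against 66.4, 78.2 and 110.9 CPM in young libraries. Ticam1, the adaptor of TLR3 and TLR4, had 8.66, 11.1 and 14.2 CPM in aged libraries, against 11.2, 12.5 and 15.3 CPM in young libraries. Irak4, the kinase that MyD88 recruits, had 25.5, 34.8 and 52.3 CPM in aged libraries, against 31.4, 33.8 and 52.2 CPM in young libraries. The ages overlapped for all 3, although 4 of 7 aged libraries had less Ticam1 than any young library. Their log2 fold changes were −0.08 for Myd88 (95% interval −0.36 to 0.20), −0.12 for Ticam1 (−0.49 to 0.25) and −0.05 for Irak4 (−0.34 to 0.24), each with an adjusted p of 0.999 by edgeR. As aged over young ratios these intervals run from 0.779 to 1.15 for Myd88, from 0.710 to 1.19 for Ticam1 and from 0.790 to 1.18 for Irak4. Changes of any size within them remain possible, and the intervals are not a limit of detection. Cd14, whose interval lay above 0 on the log2 scale, was not called after adjustment.

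The members fell into a steady and a variable set. The coefficient of variation over the 14 libraries was 14.2% for Ticam1, 15.6% for Tlr3, 19.4% for Ly96, 20.2% for Myd88, 21.6% for Tlr4, 22.7% for Irak4 and 28.3% for Cd14, and then 47.2% for Tlr2, 120.5% for Tlr7 and 152.8% for Tlr9. Tlr3, Tlr4, Ly96 and Myd88 lay above the 95th percentile of the olfactory, vomeronasal and taste receptor targets in all 14 libraries. Irak4 did so in 7 libraries, Tlr2, Cd14 and Ticam1 in 5 each, and Tlr7 and Tlr9 in 1 each. Tlr7 exceeded even the median of those targets in only 4 libraries, all from experiment 2, and Tlr9 in 3, also from experiment 2. Cd14 exceeded that median in 12 libraries, Ticam1 in 7 (1 of 6 in experiment 1) and Tlr2 in 6. A small coefficient of variation thus did not always go with a level above those targets.

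The share of receptor-target reads moved with a large part of the panel: 47.1% of all targets had a slope on its log2 that passed the test, 27.5% positive and 19.5% negative. Among the members, Tlr4 (slope −0.17, adjusted p = 0.0183) and Irak4 (−0.13, adjusted p = 0.0210) were called negative and Cd14 positive, 3 of 9, which is below that background. Under the filter on 4 groups 1 of 10 members was called, Cd14, where 34.3% of targets were. Without TMM only Cd14 was called (0.27, adjusted p = 0.00280; 30.4% of all targets), and DESeq2 called Tlr4 and Cd14 (40.6% of all targets). Leaving out 1 library kept the call of Tlr4 in 12, of Irak4 in 10 and of Cd14 in 13 of 14 runs. The Tlr4 call was lost without aged 2.4 (adjusted p = 0.101) or young 2.1 (0.0794), that of Irak4 without aged 2.3, aged 2.4, young 2.1 or young 2.2, and that of Cd14 without young 2.2 (0.162). Without young 2.2 and aged 2.4 together none of the 3 was called (adjusted p of 0.407 for Tlr4, 0.546 for Irak4 and 0.164 for Cd14). Whether these reads took part in the values of Tlr4, Irak4 and Cd14 was not tested beyond these terms.

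The other genes of the pathway were taken as 8 lists with 87 genes on the panel, of which 72 were tested. In aged against young libraries 0 of the 72 were called, 36 had positive and 36 negative fold changes, and the median log2 fold change was 0.0076, beside −0.0022 over all targets. Those values are from edgeR, in which 14 of the 72 had an unadjusted p under 0.05, where 959 of the 14168 targets did. Limma-voom also called 0. DESeq2 called 3, Atf3, Cxcl1 and Cxcl10, and it called more targets over the whole panel than edgeR did, as given in the last section. The smallest edgeR p belonged to Atf3, a stress-induced repressor of Toll-like receptor targets (log2 −2.57, adjusted p = 0.451 by edgeR). Atf3 had 9.94, 32.7 and 104.4 CPM as lowest, median and highest in aged libraries, against 8.35, 129.4 and 511.4 CPM in young libraries. The chemokine genes Cxcl1 (log2 −2.17) and Cxcl10 (−1.39) pointed the same way without passing (adjusted p = 0.460 each by edgeR). Il1b, the interleukin-1 beta gene, pointed the other way (2.26, adjusted p = 0.643 by edgeR), with 1.25, 42.1 and 159.6 CPM in aged libraries, against 0.660, 7.04 and 46.6 CPM in young libraries.

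Group by group, the 14 tested signalling kinases and ligases had fold changes between −0.33 and 0.26 on the log2 scale, with 6 positive and 8 negative, among them the ligase gene Traf6 at −0.02 and the kinase gene Irak1 at 0.08. The 10 tested negative regulators lay between −0.49 and 0.15, with Tollip, an inhibitor of IRAK signalling, at 0.02. Of the 9 tested genes of a list of NF-kB and interferon regulatory factors that also held Atf3, 8 were negative, with a median of −0.21. In experiment 1, 7 were negative (median −0.30), and in experiment 2, 4 were (median 0.06). None passed by edgeR, while DESeq2 called Atf3 as given above. Of the receptor partners, Unc93b1, which carries the endosomal receptors from the endoplasmic reticulum, was at 0.07 and the chaperone gene Hsp90b1 at −0.02. Of the other 7 Toll-like receptors only Tlr8 (log2 1.98, adjusted p = 0.672 by edgeR) and Tlr12 (0.22, adjusted p = 0.999) had enough reads to be tested, so Tlr1, Tlr5, Tlr6, Tlr11 and Tlr13 have no value there.

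On the leukocyte score, 9 of the 72 pathway genes were called, all with a positive slope, a share of 12.5% where 1.74% of all targets had such a call. They were Tlr8 (0.69), a receptor related to TLR7, Ly86 (0.72) and Cd180 (0.82), which form a receptor complex of B cells and macrophages, the B cell adaptor gene Pik3ap1 (0.53), the transcription factor gene Irf5 (0.82), the cytokine genes Il1b (0.97) and Ccl5 (1.55), the fungal receptor gene Clec7a (0.76) and the inflammasome gene Nlrp3 (0.84). Unc93b1, the carrier of TLR7 and TLR9, had a slope of 0.08 (adjusted p = 0.678) and Tirap, the adaptor that links TLR2 and TLR4 to MyD88, 0.09 (adjusted p = 0.846). These lists were drawn up with earlier results of these libraries known, so the share is a description. Under the filter on 4 groups 13 of 79 were called, all with a positive slope, where 3.06% of all targets were called and 2.8% with a positive slope. The 4 added were Tlr1 (1.33), Tlr11 (1.04), the adaptor gene Ticam2 (0.64) and the kinase gene Btk (0.99), which the main filter had left out, and Tlr13 (0.79, adjusted p = 0.0948) was not called. Since that filter let them in after the values had been seen, these are descriptions.

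**Figure D4:**
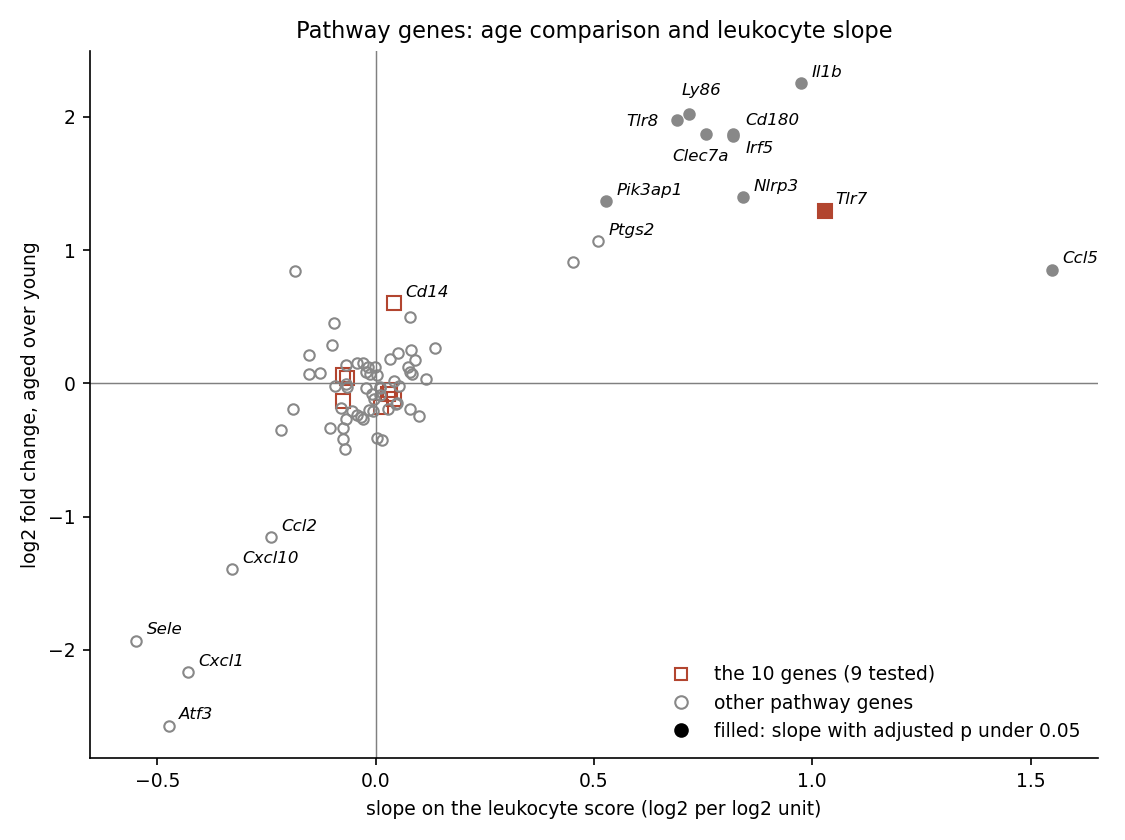
Slope on the leukocyte score (horizontal, log2 per log2 unit, from the model with age, experiment and the score) against the aged over young log2 fold change (vertical, from the model with age and experiment) for 9 tested members (squares) and 72 other tested pathway genes (circles), filled where the slope was called. Tlr7 lies with Tlr8, Cd180, Irf5 and Il1b at slopes of 0.69 to 1.03, Ccl5 lies at 1.55, and the other members lie near a slope of 0; both axes come from the same 14 libraries.

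On the share of receptor-target reads, 5 of the 72 pathway genes (6.94%) had a called positive slope, where 27.5% of all targets did, and 19 (26.4%) a called negative one, where 19.5% did. The steepest negative slopes were those of the chemokine gene Cxcl2 (−0.38), the peptidoglycan sensor gene Nod2 (−0.37), Nfkbia (−0.35), which encodes an inhibitor of NF-kB, and Nod1 (−0.29), another peptidoglycan sensor gene. The positive ones were Ccl5 (1.35), Tlr12 (0.72), Sarm1 (1.04), an adaptor gene with a Toll/interleukin-1 receptor domain, Ifnb1 (1.004), the interferon beta gene, and Ikbke (0.53), a kinase gene of the TRIF branch. Tlr12 had 26.6, 24.7 and 32.6 CPM in aged libraries of experiment 1 and 7.26, 8.31, 7.71 and 63.8 CPM in aged libraries of experiment 2. In young libraries it had 31.5, 12.6 and 26.8 CPM in experiment 1 and 24.1, 33.4, 6.95 and 11.7 CPM in experiment 2. Aged 2.4 and young 2.2, the libraries of experiment 2 with the most receptor-target reads (2.78% and 2.90%), were thus its highest in that experiment, and among all 14 libraries.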

How the data were processed

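Messenger RNA from sorted LSECs was turned into libraries with the Ion AmpliSeq mouse transcriptome kit, in which a short stretch of each gene is amplified, per the labels' protocols. The authors deposited raw, unnormalised read counts per RefSeq target, 1 file per library. HTSeq 0.6.0 and DESeq2 1.18.1 are named in the submitters' processing notes. Not given in the sources used here are aligner, build, strandedness and how shared reads were counted. The 5 bookkeeping entries (1.24 to 3.04% of reads) entered neither library sizes nor tests. Symbols came from RefSeq and GENCODE tables, which left 1368 of 23930 targets unmatched; these stayed in the tests. Reads carry no molecular identifiers, so errors cover the spread between libraries or counting only.

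The count tables were fitted with edgeR 4.0.16 (R 4.3.3): filterByExpr by age (14168 targets), TMM, and the quasi-likelihood F test with age and experiment, Benjamini-Hochberg adjusted over all targets. A model with 4 means gave each experiment and their difference. Slopes came from models with age, experiment and either the leukocyte score (mean log2 CPM of 7 genes, prior count 2) or the log2 percent of receptor-target reads. Standard errors were taken from the estimate and its F statistic. Likeness was Pearson's r of log2 CPM among targets of at least 5 CPM on average; the 3 closest per member were considered. DESeq2 1.42.0, limma-voom (limma 3.58.1), other scalings, filters and terms, a replicate block and leaving out each library were alternatives. The steps were tested on simulated counts. Aged 1.1 and aged 1.2 were the most alike pair (chi-square per degree of freedom 6.92, against 20.7 to 144 for other pairs), above sampling noise, and were counted separately. The members and lists were chosen with earlier results of these data known. Named pathway genes were those called, those with the smallest p in their list, and steady examples of each role picked after their values were seen.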

Additional observations from a re-analysis of the deposited data

Results flagged for a closer look

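The Tlr7 level of 11.0 CPM in young 2.1 stood apart from the other 6 young libraries, which reached at most 1.85 CPM. The Tlr9 level of 7.37 CPM in the same library also stood apart from the other 6, which reached at most 1.19 CPM. In both cases the gap to the nearest library, as a share of the range of the 7 young libraries, passed Dixon's 95% critical value. These were 2 of 20 groups checked (10 genes at each age). Chance marks about 1 group in 20 only where values are normally distributed, which skewed genes with few reads such as Tlr7 and Tlr9 are not. Both flags fell on the same library and on genes that were high in the same libraries. Young 2.1 had 28.7 CPM of Ptprc and 21.7 CPM of the B cell marker Cd79b. Its summed Kupffer cell and macrophage markers were at 84.9 CPM and its summed T and NK cell markers at 109 CPM. The part of all these transcripts in its Tlr7 and Tlr9 was not tested beyond the slopes given above.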

How the results depend on the processing

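No member was called between ages under any alternative run. The 23 targets called in all became 46 without TMM, 146 with DESeq2, 12 without the experiment term, 6 with the leukocyte score, 3 with Ptprc, 59 with receptor-target reads and 61 with the score and those reads as terms, 36 without young 2.2 and aged 2.4, 4 with aged 1.1 and aged 1.2 summed, and 4 to 29 when 1 library was left out. The cause was not tested. The Tlr7 fold change reversed to log2 −0.43 with the leukocyte score, −0.57 with Ptprc and −0.39 with the score and receptor-target reads. Irak4 reversed to 0.011 without TMM, and without young 2.2 and aged 2.4 together Tlr2 reversed to −0.080 and Ly96 to −0.0033. Leaving out 1 library gave −0.12 to 0.16 for Tlr2, −0.013 to 0.17 for Ly96 and 0.65 to 2.34 for Tlr7. Scaling without TMM shifted the median of all targets by 0.054 on the log2 scale.

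Members called for the leukocyte slope numbered 2 under the filter on 4 groups, which Tlr9 entered through its high libraries, and 0 with Kupffer cell markers, against 1. For receptor-target reads they numbered 1 without TMM, without young 2.2 and aged 2.4 and under the filter on 4 groups, against 3, and 1 to 4 when 1 library was left out. For experiment 2 against 1 they numbered 0 without TMM and with receptor-target reads (4.32% and 1.35% of all targets called), 2 with DESeq2 and limma-voom (14.2% and 32.8%), 4 without young 2.2 and aged 2.4 (54.5%), and 0 to 3 when 1 library was left out (1.17 to 35.3%), against 1. The 4 of 9 members called without both libraries were a smaller share than that of all targets.

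Same-numbered libraries were not treated as pairs in the main model. Their deviations correlated over 0.1 in 4 of 7 pairs (r from −0.38 to 0.78), and 3 correlated best with their own number. With 7 pairs this check cannot show whether some same-numbered libraries were handled together. A replicate block gave 5 called targets and 0 called members. With 7 libraries per age, the 95% interval of Tlr7 was wide (log2 −0.66 to 3.26), and Tlr9 had 3 reads or fewer in 6 of 14 libraries. Such an interval is not a limit of detection.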
